A study of Bos grunniens with 18 samples.

Results

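Heat shock proteins and DNAJ co-chaperones were taken from the expression table as the genes whose symbol begins with HSPA, HSPB, HSPD, HSPE, HSPH, HSP90 or DNAJ. Only the first part of the table was analysed here, and 2 of its 173 genes met the rule, HSPA13 and DNAJC28. The data are therefore an account of 1 HSP70 relative and 1 J-domain protein, and the stress-inducible HSP70 genes, the HSP90 genes and the small heat shock proteins were not analysed here. Both genes are described in the ovary of adult yaks (Bos grunniens) aged 6 years at 3 reproductive stages, anestrus (YO-A, collected in April), estrus (YO-F, August) and pregnancy (YO-P, December). The animals came from 1 farm, and no treatment or genetic change is named for any stage. Since each stage was collected in a month of its own, stage and date of collection cannot be told apart. Each stage had 3 input libraries of poly(A) RNA, and 1 list of m6A peaks from the immunoprecipitated RNA of the same stage. Expression is given as FPKM, the fragments of a gene scaled to the length of its exons and to the mapped reads of the library. Levels of different genes may be set side by side only as far as their annotated exon models are equally complete. The expression table gives no number of fragments behind a value, and the study's sequencing statistics were not used here.

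HSP70 proteins bind unfolded stretches of other proteins and release them in a cycle driven by ATP. J-domain proteins, also called HSP40 or DNAJ proteins, bring clients to an HSP70 and stimulate its ATPase. HSPA13, also known as STCH, is an HSP70 relative of the microsomal fraction that keeps the ATPase domain but lacks the peptide-binding part of the classical HSP70 proteins. DNAJC28 belongs to the C class of J-domain proteins, which share with the other classes little more than the J domain itself. In the ovary, chaperones of these families are known for folding the secreted and membrane proteins of follicular and luteal cells and for their role with steroid receptors.

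HSPA13 (ENSBGRG00000000025) lies on the minus strand of chromosome 1 from 14404460 to 14414915 in the coordinates of the authors' yak annotation, for which the study's methods give a Bos grunniens genome version but no assembly name. It spans 10456 bases and is listed with 2 transcripts. DNAJC28 (ENSBGRG00000000137) lies on the same strand from 37145166 to 37146308 and is listed with 1 transcript of a single exon. Its model of 1143 bases amounts to exactly 381 codons. Whether it holds any untranslated bases was not checked, while HSPA13 has an annotated 3′ UTR. The FPKM of these genes may therefore rest on unlike models. Neither gene overlaps another gene of the table. The nearest genes in the table were ENSBGRG00000000024 and SAMSN1 for HSPA13, and TMEM50B and GART for DNAJC28.

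The study left 1 estrus library, YO-F2, out of its comparisons because it stood apart in a principal component analysis, and it is given separately here. In that library 39 of the 130 genes tested lay below all the others and 32 lay above them, by more than 1 log2 unit for 19 and 12 of them. A symbol is given for 108 of the 173 genes. None of the 71 marker genes in 11 lists (ovarian, vascular, immune, muscle, ciliated and red cells) is among them, so the tissue label was not checked. Likewise 0 of 94 genes were found from 6 lists of heat shock factors, co-chaperones, CCT subunits, endoplasmic reticulum stress genes, mitochondrial chaperones and immediate-early genes. HSPA6, the HSP70 gene that the study took to RT-qPCR, was not among the 173 genes either. The study reports differential expression of HSPA6 in all of its groups, and RT-qPCR profiles that conformed to its RNA-seq. This could not be examined in the part of the expression data analysed here. The study's own lists of differentially expressed genes were not used.

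The levels of HSPA13 in the 3 stages overlapped. Its FPKM was 14.2, 15.3 and 15.6 in the libraries YO-A1 to YO-A3. In estrus it was 14.0 in YO-F1 and 14.8 in YO-F3. In pregnancy it was 16.6, 13.0 and 15.5 in YO-P1 to YO-P3. The pregnancy libraries held both the highest and the lowest of these 8 values, and they enclosed every anestrus and estrus value. The mean was 15.1 ± 0.780 (SD, n = 3) in YO-A, 14.4 ± 0.563 (SD, n = 2) in YO-F and 15.0 ± 1.85 (SD, n = 3) in YO-P. In the order anestrus, pregnancy, estrus, no neighbouring stages differed by more than the larger SD of the pair. Pregnancy and estrus differed by slightly more than the smaller SD, that of estrus.

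DNAJC28 had a lower FPKM, and its stages overlapped as well. Its FPKM was 5.33, 5.15 and 4.69 in YO-A1 to YO-A3. It was 5.31 in YO-F1 and 3.90 in YO-F3, and 4.62, 6.03 and 5.62 in YO-P1 to YO-P3. The lowest value came from an estrus library and the highest of the 8 from a pregnancy library, but the other estrus library lay among the anestrus libraries. The mean was 5.42 ± 0.729 (SD, n = 3) in YO-P, 5.06 ± 0.332 (SD, n = 3) in YO-A and 4.60 ± 0.998 (SD, n = 2) in YO-F. Again no neighbours in this order differed by more than the larger SD of the pair, but both steps exceeded the smaller SD, that of anestrus.

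**Figure D1:**
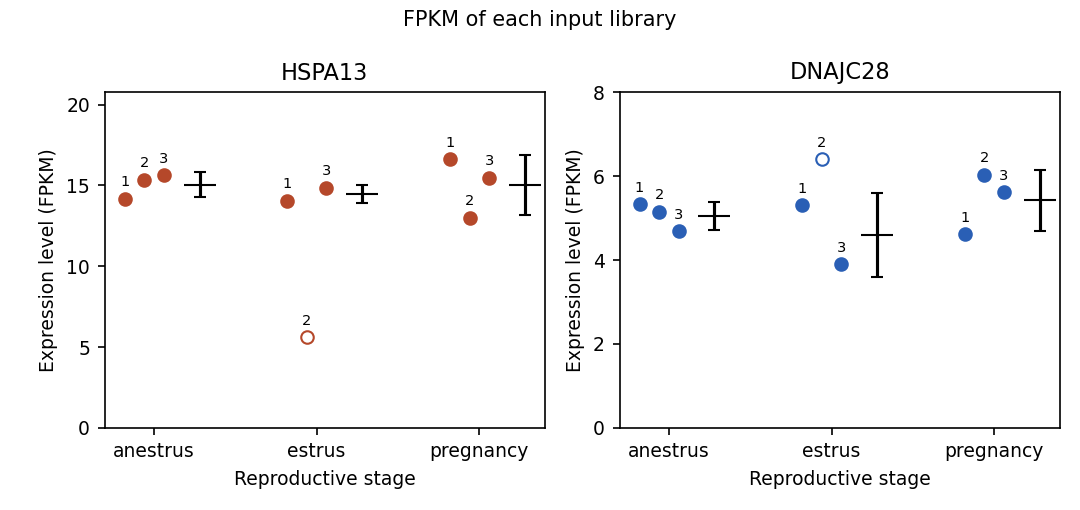
FPKM of HSPA13 (left) and DNAJC28 (right) in each input library by stage, with the replicate number above each point; the open point is YO-F2, and the bar and whiskers are the mean and SD of the filled points. HSPA13 was at 13.0 to 16.6 in the filled libraries and at 5.62 in YO-F2, and DNAJC28 was at 3.90 to 6.03 and at 6.41.

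The stages were compared with limma on log2(FPKM + 0.1) over the 130 genes whose mean reached 0.1 FPKM, in 1 fit of the 8 libraries without YO-F2. Both members passed this minimum. The standard of the study asks for a log2 fold change of 1 or more in either direction and an unadjusted p under 0.05, and by it 0 of the 2 members were called in any of the 3 comparisons. Of all genes tested, 1.54% were called in YO-FvsA (0.769% higher and 0.769% lower in estrus). The share was 2.31% in YO-FvsP, all lower in estrus, and 2.31% in YO-PvsA, all higher in pregnancy. Neither member had an unadjusted p under 0.05 in limma, which 12 genes (9.23%), 12 genes (9.23%) and 4 genes (3.08%) had in the 3 comparisons. With the Benjamini-Hochberg adjustment 0 of the 130 genes passed 0.05 in limma, and the count under the alternatives was 0 to 5. The libraries of the compared stages overlapped for both members in each comparison. Over all genes tested, 19.2% had no overlap between estrus and anestrus, 26.9% between estrus and pregnancy and 9.23% between pregnancy and anestrus. With so few libraries per stage some separation arises by chance, and its expected share was not computed. YO-FvsA and YO-FvsP share the 2 estrus libraries, and each anestrus or pregnancy library also serves in YO-PvsA.

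In YO-FvsA, which sets estrus against anestrus, the log2 fold change of HSPA13 was -0.058 (standard error 0.15, limma adjusted p = 0.945). Its 95% confidence interval ran from -0.41 to 0.29, or from 75.5% to 122% of the anestrus level. For DNAJC28 the value was -0.15 on the log2 scale (standard error 0.23, limma adjusted p = 0.894), with an interval from -0.68 to 0.38. This corresponds to 62.6% to 130% of the anestrus level. The median log2 fold change was -0.10 over the 2 members and 0.071 over all genes tested.

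In YO-FvsP the log2 fold change was -0.050 for HSPA13 (limma adjusted p = 0.974), with an interval from -0.40 to 0.30. For DNAJC28 it was -0.24 (standard error 0.23, limma adjusted p = 0.779). Its interval ran from -0.77 to 0.29, or from 58.7% to 122% of the pregnancy level. By absolute log2 fold change DNAJC28 had rank 68 of the 130 genes in YO-FvsP and HSPA13 rank 114. The median was -0.14 over the members and 0.067 over all genes tested.

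In YO-PvsA the difference of HSPA13 was -0.0083 on the log2 scale (standard error 0.14, limma adjusted p = 0.990). The interval was from -0.32 to 0.30, so that a change beyond 80.2% or 123% of the anestrus level lay outside it. Only 4 genes of the 130 had a smaller absolute change in YO-PvsA. DNAJC28 had a log2 fold change of 0.092 (limma adjusted p = 0.910), with an interval from -0.38 to 0.57, and the median was 0.042 over the members and -0.032 over all genes tested. Without YO-F2, all 3 intervals of both members lay within 1 log2 unit of 0 on either side. With YO-F2 included, those of HSPA13 reached -1.28 in YO-FvsA and -1.27 in YO-FvsP, past the size the standard asks for. Nothing in the sources states outright that each library came from a different animal, and if some did not, these p-values and intervals measure only the spread between samples.

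**Figure D2:**
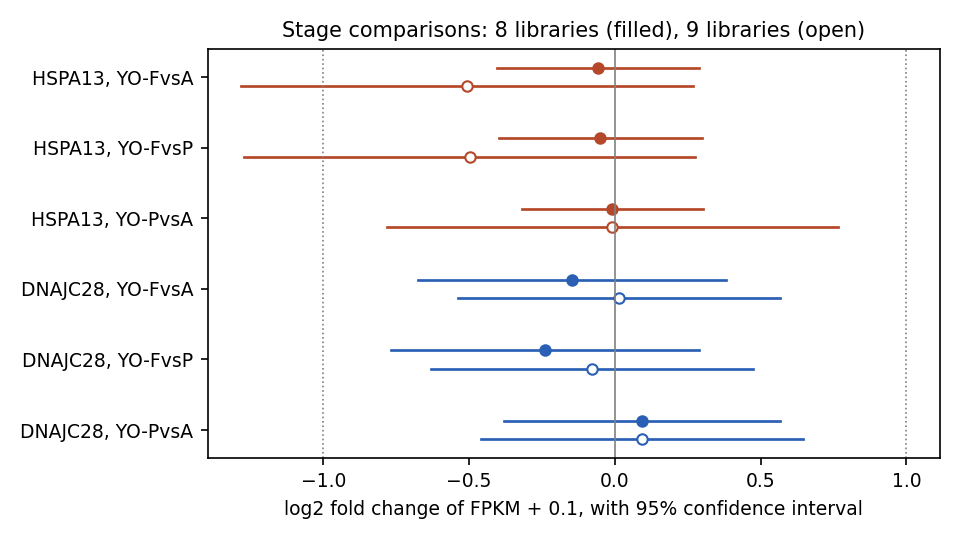
Log2 fold change of FPKM + 0.1 with its 95% confidence interval from limma for HSPA13 (upper rows) and DNAJC28 (lower rows) in each pair of stages; filled points are the fit of 8 libraries and open points that of 9 with YO-F2, and dotted lines mark an absolute log2 fold change of 1. Every interval includes 0, and with YO-F2 the estimates of HSPA13 in YO-FvsA and YO-FvsP moved to -0.51 and -0.50.

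Outside YO-F2, HSPA13 varied little from library to library. The SD of its log2(FPKM + 0.1) over the 8 libraries was 0.110, against a median of 0.316 over the 130 genes tested, and it was rank 4 from the smallest. Since low genes vary more on this scale, the same was read among the 102 genes whose mean reached 1 FPKM in these libraries, where the median was 0.274 and HSPA13 again had rank 4. Its coefficient of variation over the 8 libraries was 7.56%. DNAJC28 had an SD of 0.193 on the log2 scale, rank 30 in both sets, and a coefficient of variation of 13.1%. By mean FPKM over the 8 libraries HSPA13 had rank 40 and DNAJC28 rank 74 of the 173 genes.

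Within a library, the FPKM of HSPA13 was 2.16 to 3.81 times that of DNAJC28, with a median of 2.87 over the 8 libraries. The size of this ratio also depends on the annotated models of both genes. The lowest ratio was that of YO-P2, which had the least HSPA13 and the most DNAJC28 of the 8 libraries. The highest was that of YO-F3, which had the least DNAJC28. In YO-F2 alone the order of the genes was turned, with a ratio of 0.877.

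Both genes were at an end of their range in YO-F2. This was common there, with 39 of the 130 genes tested below all the other libraries and 32 above them. HSPA13 had its lowest FPKM there, 5.62, which was 43.2% of the lowest other library and 37.2% of their median. On the log2 scale HSPA13 lay 1.20 below the range of the other 8 libraries, so it was 1 of the 19 genes that lay more than 1 log2 unit below. From the lowest, its deviation from the median had rank 27 of the 130 genes tested, and the median deviation was -0.078. DNAJC28 had 6.41 in YO-F2, the highest of its 9 values, but only 0.085 log2 units above the next. In whole-tissue RNA, fewer cells that express a gene and less of its RNA per cell cannot be told apart. With YO-F2 included, the mean of HSPA13 in estrus was 11.5 ± 5.11 (SD, n = 3), and its log2 fold change was -0.51 in YO-FvsA (limma adjusted p = 0.571) and -0.50 in YO-FvsP (limma adjusted p = 0.512). The mean of DNAJC28 in estrus was then 5.20 ± 1.26 (SD, n = 3), with log2 fold changes of 0.014 and -0.079. What set this library apart was not tested.

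**Figure D3:**
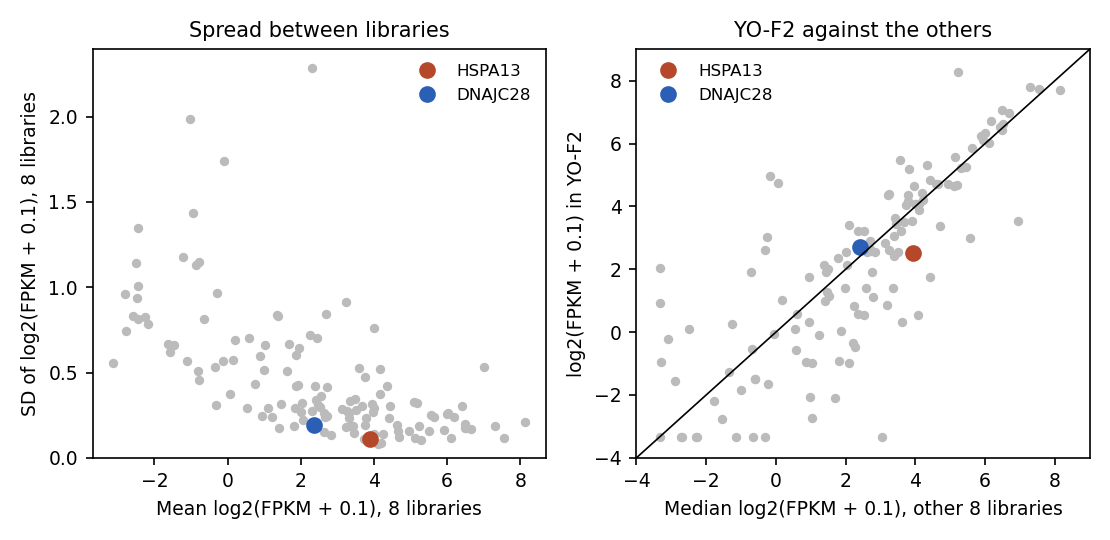
Left, SD against mean of log2(FPKM + 0.1) over 8 libraries for the 130 genes tested (grey) with HSPA13 and DNAJC28 in colour; right, the value in YO-F2 against the median of the other 8 libraries, with the line of equality. HSPA13 sits at the low edge of the spread with an SD of 0.110 and below the line in YO-F2 by 1.41, whereas DNAJC28 is 0.29 above the line.

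The m6A mark, a methyl group on adenosine, is placed on messenger RNA mainly near the stop codon, in the 3′ UTR and in long exons. In the immunoprecipitation, fragments bound by an antibody to m6A are compared with the input, and the fold enrichment of a peak is the ratio of both. The lists run first along the plus strand of chromosome 1 and then along its minus strand, where both members lie. The parts analysed here hold 9 complete peaks for anestrus and 18 for estrus and end on the plus strand, so they do not reach either gene, and the stages could not be compared. The pregnancy list analysed holds 282 complete peaks and covers the minus strand up to position 46144327, and 3 of its peaks belonged to the 2 members.

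The single peak of HSPA13 ran from 14404460 to 14406190 on chromosome 1 and was annotated to the 3′ UTR. It consists of 764 bases that end at the last base of the annotated gene and of 32 bases further upstream, 1731 bases from end to end. Its fold enrichment was 11.0 with a log10 FDR of -221. This was rank 26 of all 282 peaks and rank 6 of the 58 peaks annotated to a 3′ UTR, whose median fold enrichment was 4.32. By its log10 p of -223 it had rank 18 of 282. On the minus strand it had rank 3 of 44 peaks by fold enrichment and rank 2 by log10 p.

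DNAJC28 had a pair of weaker peaks in its only exon. One of them covered the last 528 bases of the gene model (37145166 to 37145693), with a fold enrichment of 4.47 and a log10 FDR of -18.4. The other covered 265 bases (37145898 to 37146162) beginning 146 bases from the annotated 5′ end, with a fold enrichment of 4.20 and a log10 FDR of -22.1. Their ranks by fold enrichment were 141 and 160 of 282, on either side of the middle of the list, since the median peak had 4.43. They took up 46.2% and 23.2% of the 1143 bases of the model, and both were annotated to exon 1 of 1. These shares and the region label depend on the model. The longer peak stops at the annotated 3′ end of DNAJC28, as the HSPA13 peak does at that of HSPA13. Whether either reaches further is unknown, so the region labels of the 2 genes cannot be compared.

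**Figure D4:**
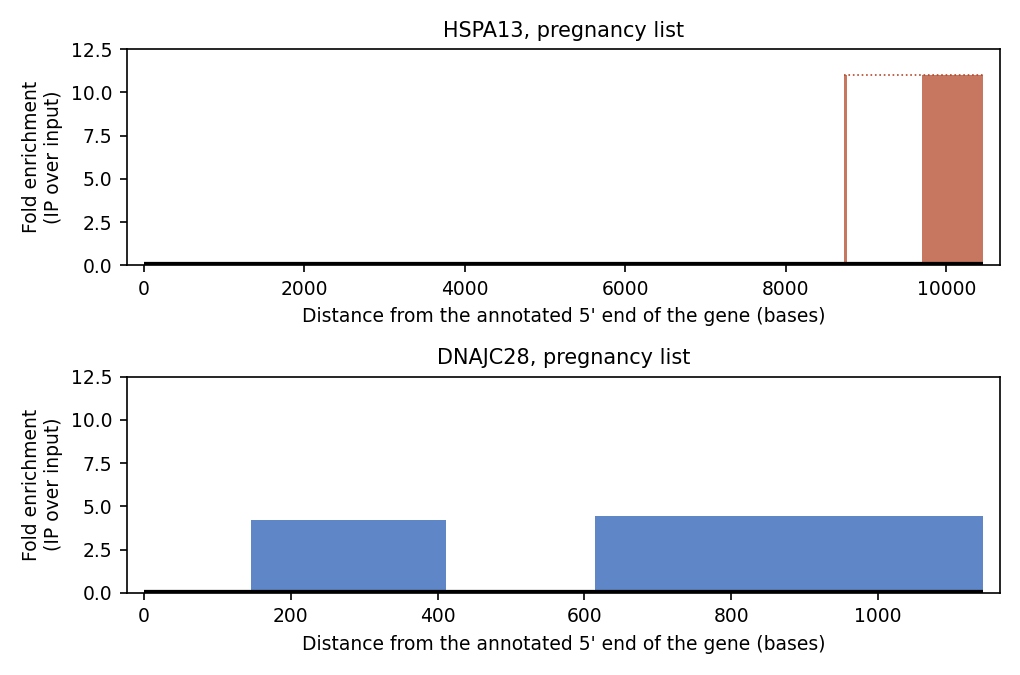
Peaks of the pregnancy list along HSPA13 (top) and DNAJC28 (bottom), drawn by distance in bases from the annotated 5′ end of the gene (black line); the height of each filled block is the fold enrichment of immunoprecipitated over input RNA, and the dotted line joins the blocks of 1 peak. The HSPA13 peak, at 11.0, ends at the 3′ end of the gene, and the DNAJC28 peaks, at 4.47 and 4.20, lie within its single exon.

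Peaks were common along this stretch. Of the 52 genes of the table on the minus strand of chromosome 1 up to position 46144327, 22 (42.3%) had at least 1 peak in pregnancy, and 9 had 2 or more. Of the 33 of these genes whose mean reached 1 FPKM, 20 (60.6%) had a peak. The list gives 1 value per peak for the whole stage, so the spread of the fold enrichment between animals is unknown. HSPA13, with 15.0 FPKM in pregnancy, had the stronger peak, and DNAJC28, with 5.42 FPKM, had the weaker ones. Whether fold enrichment goes with the level of a gene was not tested.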

How the data were processed

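Input and m6A-immunoprecipitated RNA of 3 ovarian samples per stage was sequenced. The authors filtered reads with fastp, aligned them to the Bos grunniens genome with HISAT2 (version 2.0.4 in the submitters' processing notes), and deposited StringTie FPKM values, with no further scaling stated. All 63 genes listed with several transcripts had values of more than 6 decimals, as 4 of 110 genes with 1 transcript did. The peak lists the authors deposited, annotated with ChIPseeker 1.18.0, give the fold enrichment as a ratio of immunoprecipitated RNA to input, and in score columns each peak's p-value and FDR as log10, with 1 list for each stage. The peak caller is not given in the sources used here. A further 3 deposited tables hold the authors' own stage comparisons of peaks (log2 fold change, p-value, FDR) and were not used.

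Each file was analysed in its opening part only. Incomplete last lines, 1 in the expression table and 1 in each of the 3 peak lists, were left out. Values were analysed as log2(FPKM + 0.1), a scale that understates changes of low genes, with limma 3.58.1 in R 4.3.3 (empirical Bayes with a trend) over the 130 genes whose mean FPKM in the 9 input libraries was 0.1 or more. The study names edgeR for its comparisons, which needs counts, so it was not used on these FPKM. Peaks and levels were described with pandas 2.3.3 and matplotlib 3.10.9 in Python 3.11.15. The study's sequencing statistics per library were not used, and FPKM give no fragment counts per gene, so no counting error was computed. The alternatives changed the pseudocount (1 or 0.01), the minimum (none or 1), the libraries (with YO-F2, the compared stages alone, or each library left out), the scaling (median-ratio or quantile), the trend, a block for replicate numbers, and the peak thresholds. Any heat shock member was to be named, and DNAJ members that were called, among the 5 highest in FPKM, or among the 3 largest fold enrichments of a list. Both symbols were found in the RefSeq table supplied (Bosgru_T2T1.0), from which no coordinates were taken. The members, the lists and the tests were chosen with earlier results of these data known.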

Additional observations from a re-analysis of the deposited data

How the results depend on the processing

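Under each of the 18 alternatives to the stage comparisons, 0 of the 2 members passed the study's standard. Of the 108 recomputed log2 fold changes 7 turned. Many of the other 101 could not, as the minimum, the trend and libraries outside the comparison do not enter them. The estimates of HSPA13 moved with the scaling, from -0.058 to -0.15 in YO-FvsA and from -0.050 to -0.14 in YO-FvsP with median-ratio scaling, and to -0.13 and -0.17 with quantile normalization. With YO-F2 the value of DNAJC28 in YO-FvsA turned to 0.014, and with quantile normalization that of HSPA13 in YO-PvsA turned to 0.038. With 1 library left out at a time, HSPA13 ranged from -0.10 to -0.018 in YO-FvsA, from -0.15 to 0.026 in YO-FvsP and from -0.084 to 0.092 in YO-PvsA. DNAJC28 ranged from -0.37 to 0.070 in YO-FvsA, from -0.46 to -0.022 in YO-FvsP and from 0.012 to 0.20 in YO-PvsA. Those that turned were HSPA13 in YO-FvsP (0.026 without YO-P1) and in YO-PvsA (0.0064 without YO-A2, 0.020 without YO-A3 and 0.092 without YO-P2), and DNAJC28 in YO-FvsA (0.070 without YO-F3); the cause was not tested. Without YO-F1 or YO-F3 the lone estrus library was assumed to vary like the other stages. The mean FPKM of HSPA13 in estrus moved to 11.5 with YO-F2 and to 13.5 with median-ratio scaling. Over all alternatives, 1 to 9 of the genes tested met the standard in YO-FvsA and also in YO-FvsP, and 1 to 4 in YO-PvsA, against 2, 3 and 3 as reported; the highest counts, 9 and 9, came without YO-F3, where 5 genes in YO-FvsA also passed the adjusted p in limma. With a fold enrichment of at least 5, 1 member peak remained in place of 3, and all 3 had a log10 FDR of at most -2. A stricter overlap of peaks between stages could not be run, since only 1 list reaches the members.

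With the replicate number as a block, the values of HSPA13 were -0.10, -0.092 and -0.0083 and those of DNAJC28 -0.10, -0.19 and 0.092 for YO-FvsA, YO-FvsP, then YO-PvsA, and 1, 4 and 4 of the 130 genes met the standard. Whether same-numbered libraries deviate together could not be decided, since the check was weak. Each library was taken against the mean of its stage, so the 2 estrus libraries were exact opposites and their correlations were tied. Over their 7 pairs the correlation across genes ran from -0.17 to 0.39 and was over 0.1 in 1 pair, and 2 of 8 libraries correlated best with their own number.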
